A study of Mus musculus with 4 samples.

Results

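The genes described here are those that were clearly active in wild-type LSK cells and whose level in the Hhex-deleted libraries was at most 50% of the wild-type level. LSK cells are the Lin-Sca+Kit+ fraction of mouse bone marrow, which holds the stem cells and early progenitors of the blood. Levels are raw counts scaled to a library total of 1000000 (CPM). The genes were selected on these measured levels: a gene was taken when it had at least 5 CPM in both wild-type libraries and when the higher of its values labelled Hhex-deleted was at most 50% of its lower wild-type value. Of 26286 genes in the count table, 11060 had the wild-type minimum, and 10714 of these were neither on a sex chromosome nor left out by name. The thresholds were met by 45 genes, 5 of which were left out by name (Ccnd1, Elane, Vcam1, Trem1 and Trem3), so that 40 genes remained, which is 0.373% of the 10714. The gene with Entrez number 100503188 is among the 40 although it has no RefSeq entry, so its chromosome could not be checked. All 4 libraries and the only contrast of the study chose these genes, so their differences are a description and carry no test.

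The study profiled mRNA of sorted LSK cells from bone marrow of C57BL/6 mice, with 2 libraries of the genotype Hhex deletion and 2 of the wild-type genotype. How and when Hhex was deleted, and the age of the mice, are not stated in the sources used here. The labels do not say whether the libraries of a group came from separate mice. The sex markers given below differ between the libraries labelled Hhex-deleted, so these hold RNA of different mice, while the spread between the wild-type libraries may be technical. Hhex itself had 125 and 115 CPM in wild-type and 177 and 193 CPM in the libraries labelled Hhex-deleted, and since a gene count includes exons outside a deleted part, it does not check the deletion.

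Hhex is a homeobox transcription factor of blood, liver and endothelial development. It is known mainly as a repressor that works with corepressors of the Groucho/TLE family, and loss of Hhex is known to impair lymphoid development. LSK cells are a mixed population: stem cells and multipotent progenitors already transcribe low levels of genes of the lineages that they can form, granulocyte and monocyte genes among them. In RNA of a whole population, fewer cells of a kind and less RNA per cell cannot be told apart.

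Depth was even, with 27871827 to 29501591 counts per library, so that 1 CPM stood for nearly the same number of reads in every library and 3 counts for 0.102 to 0.108 CPM. The markers of the sort were present in all 4 libraries, Kit at 556 to 716 CPM and Ly6a, the gene of Sca-1, at 20.5 to 43.6 CPM. Of other markers used for LSK cells, Cd34 stood at 781 to 871 CPM, Flt3 at 276 to 520 and Slamf1 at 6.44 to 9.73 CPM. Cd48 had 146 and 139 CPM in wild-type and 209 and 238 CPM in the libraries labelled Hhex-deleted. Among these markers Cd48 alone passed the test (log2 fold change 0.63, edgeR adjusted p = 0.0239). Labelled Hhex-deleted replicate 1 differed from the others in sex markers, with 2634 CPM of Xist against 1.89 to 2.66 CPM and with 0.339 CPM of the Y-linked Ddx3y against 124 to 142 CPM. Without that library the rule has fewer conditions and selected 74 genes, which contain the 40 by construction. The median log2 fold change of the 40 was -1.59 without it and -1.58 with it, a description that rests on the values that chose the genes.

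The selected genes stood at a median of 33.9% of their wild-type mean in the libraries labelled Hhex-deleted, with a range from 15.2% to 44.7%. A total of 5 genes were at or under 25%, 15 lay between 25% and 33.3%, and 20 lay above. The median log2 fold change fitted by edgeR was -1.58 (range -2.75 to -1.18), against -0.01 over all 14912 tested genes. Of the 40, 37 passed the edgeR quasi-likelihood test at an adjusted p of 0.05, a threshold that 1.12% of all tested genes passed in this direction, and nothing is read from this count because the same libraries chose the genes. The 3 that did not pass were Ighv9-3, 4933440M02Rik and Mmp28. A further 113 active genes were called lower without meeting the rule.

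**Figure D1:**
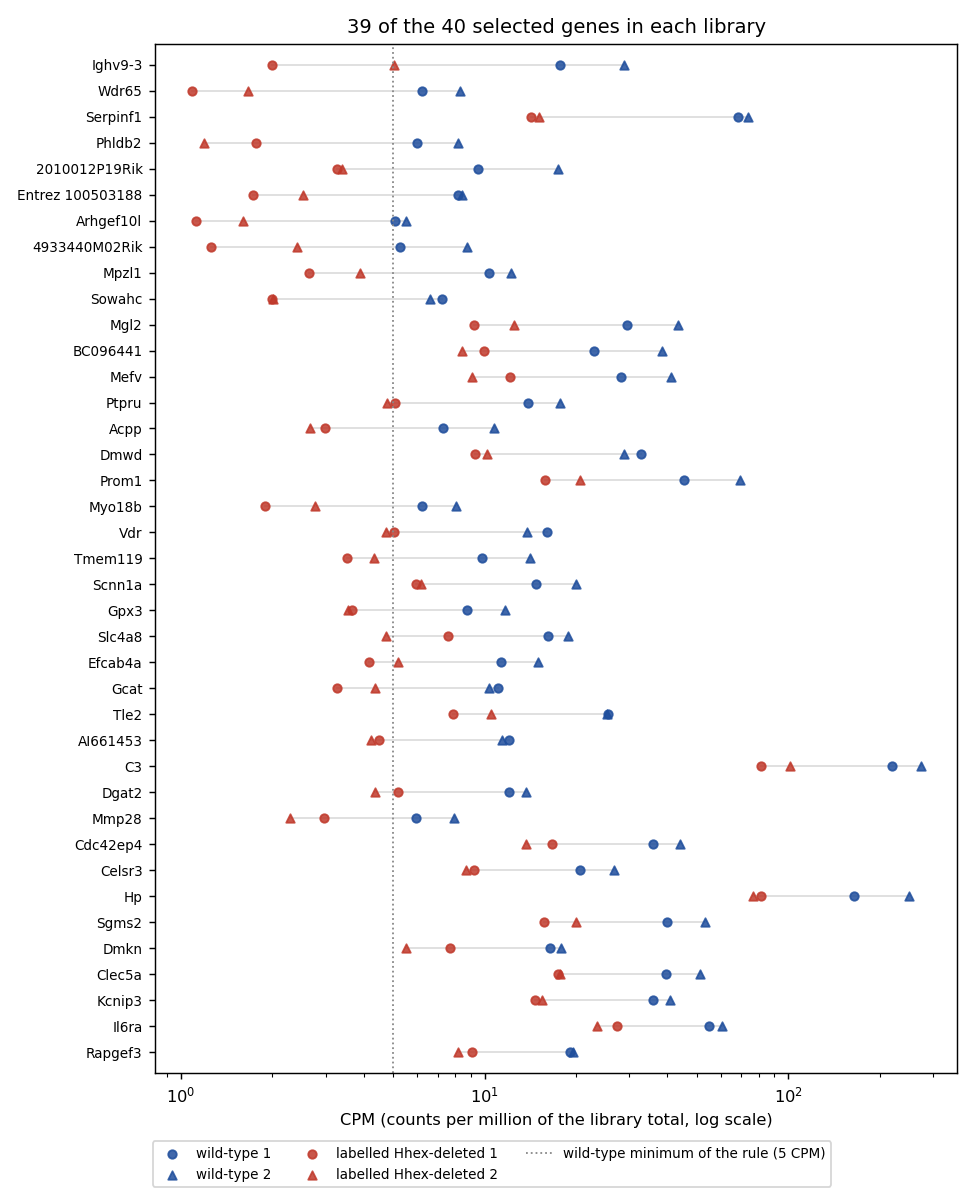
Level of 39 of the 40 selected genes in each library, on a log axis of CPM, sorted by the ratio of the group means with the lowest ratio at the top. Circles are replicates 1 and triangles replicates 2, and the dotted line is the wild-type minimum of 5 CPM; C3, Hp and Serpinf1 lie farthest to the right, and no pair of groups overlaps because the rule excludes it.

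Most of these genes were expressed at low levels. The wild-type mean ran from 5.28 CPM for Arhgef10l to 247 CPM for C3, with a median of 17.3 CPM, against 48.5 CPM over the active genes. A total of 23 genes (57.5%) lay under 20 CPM, compared with 22.4% of the active genes. Per gene length, in the deposited log2 RPKM values, the highest wild-type levels were those of Hp (7.33), the immunoglobulin segment Ighv9-3 (6.09), C3 (5.67) and Serpinf1 (5.66), and the lowest that of Myo18b (-0.13). The median difference of the 40 genes in these deposited values, which come from the same 4 libraries, was -1.61 on the log2 scale.

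Of the secreted proteins, Serpinf1 stood out by its depth and its small spread. It encodes pigment epithelium-derived factor, a serpin that does not inhibit proteases and is known for blocking the growth of blood vessels. Serpinf1 had 68.4 and 73.8 CPM in wild-type and 14.2 and 15.1 CPM in the libraries labelled Hhex-deleted. Its mean was 71.1 ± 3.79 CPM (SD, n = 2) in wild-type and 14.7 ± 0.598 CPM (SD, n = 2) in the other group, so the level labelled Hhex-deleted was 4.85-fold lower, at 20.6% of wild-type. Among the selected genes only Ighv9-3 and Wdr65 had a lower ratio, both with a wider spread. Of 13 tested serpins, edgeR called 1 lower, Serpinf1, and 0 higher, as did DESeq2 and limma-voom, where edgeR called 1.12% of all tested genes lower and 1.48% higher. At an unadjusted edgeR p under 0.05 there were 3 lower and 2 higher serpins. The median log2 fold change of the serpins was 0.14. The serpins of smallest unadjusted p after it were Serpinh1, with wild-type levels of 1.65 and 2.38 CPM and 0.508 and 0.647 CPM in the other group, and Serpinb2, with 0.466 and 0.490 against 1.63 and 1.26 CPM, and neither passed the test (edgeR adjusted p = 0.0617 and 0.0929). The genes on either side of Serpinf1 on chromosome 11, Smyd4 and Wdr81, had log2 fold changes of -0.20 and 0.20. Its promoter window, 250 bases before to 50 after the start annotated by RefSeq on GRCm38.p6, is shown because this gene combined the deepest difference among the well expressed members with the best precision. Capitals mark AGATAA, the core bound by Gata factors, and TGTGGT, the core bound by Runx factors, both searched on both strands:
Serpinf1, chr11:75422574-75422873, minus strand: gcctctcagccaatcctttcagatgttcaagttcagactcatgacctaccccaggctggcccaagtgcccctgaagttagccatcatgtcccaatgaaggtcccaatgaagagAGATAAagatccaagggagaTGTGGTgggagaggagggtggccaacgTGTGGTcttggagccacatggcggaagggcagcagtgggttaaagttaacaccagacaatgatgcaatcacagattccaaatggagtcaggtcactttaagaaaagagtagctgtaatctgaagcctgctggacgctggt
The Gata core lies 137 bases and the Runx cores lie 117 and 90 bases before the start. These letters were found in the windows of 7.59% and 15.1% of the 8222 active genes with a promoter entry, so the matches are a description and not sites.

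C3 and Hp, both acute-phase plasma proteins, were the most abundant members in CPM. C3, the central component of complement, had 219 and 274 CPM in wild-type and 81.2 and 101 CPM in the libraries labelled Hhex-deleted, a level of 37.0%. Hp encodes haptoglobin, which binds free haemoglobin and is stored in granules of neutrophils. It had 165 and 249 CPM in wild-type and 81.6 and 76.3 CPM in the libraries labelled Hhex-deleted. Wild-type replicate 2 was 1.51-fold above replicate 1 for Hp. The ratio of the rule therefore rested on the lower wild-type library and lay near the threshold, at 49.4%. The window of C3 is shown as the most abundant member with an entry, with capitals for TTGCNNAA, a core bound by C/EBP factors, and for TATAAA, the TATA box:
C3, chr17:57228087-57228386, minus strand: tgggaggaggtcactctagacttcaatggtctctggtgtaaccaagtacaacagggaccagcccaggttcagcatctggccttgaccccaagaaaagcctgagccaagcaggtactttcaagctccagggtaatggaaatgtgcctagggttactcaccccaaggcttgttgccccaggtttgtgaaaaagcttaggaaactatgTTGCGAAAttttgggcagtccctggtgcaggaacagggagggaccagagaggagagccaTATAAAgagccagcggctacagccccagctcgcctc
The C/EBP core lies 45 bases before and the TATA box 14 bases after the annotated start. They were found in 9.68% and 7.86% of active genes and in 3 of the 30 selected genes with an entry each.

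The other secreted members were weakly expressed. Gpx3, an extracellular glutathione peroxidase, had 8.75 and 11.7 CPM in wild-type and 3.66 and 3.54 CPM in the libraries labelled Hhex-deleted. Dmkn, dermokine, known from the epidermis, had 16.4 and 17.9 CPM against 7.69 and 5.52 CPM. Mmp28, a matrix metalloproteinase, had 5.96 and 7.94 CPM against 2.95 and 2.28 CPM, and it lies over the record 1700020L24Rik, which was lower as well (31.0 and 38.2 CPM against 16.5 and 15.9). The strand setting of the counting is not given, so reads of overlapping genes cannot be assigned with certainty. The same holds for Wdr65, Phldb2, Gcat and AI661453, whose spans also overlap another gene. Over the 6 secreted proteins the mean level in the libraries labelled Hhex-deleted ran from 20.6% to 38.5% of the wild-type mean.

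A total of 8 members encode receptors or adhesion proteins of the cell surface. Il6ra, the ligand-binding chain of the interleukin 6 receptor, had 54.9 and 60.4 CPM in wild-type and 27.4 and 23.5 CPM in the libraries labelled Hhex-deleted. Its higher value labelled Hhex-deleted was 49.9% of its lower wild-type value, close to the threshold. Il6st, the signalling chain it shares with other receptors, had 40.5 and 42.6 against 31.7 and 34.8 CPM (log2 fold change -0.35, edgeR adjusted p = 0.118). Of the 39 cytokine receptor genes tested, edgeR called 4 lower and 2 higher, against 1.12% and 1.48% of all tested genes, DESeq2 called 5 and 5, and limma-voom called 4 and 2. Their median log2 fold change was -0.03. The 2 that edgeR called higher were Il7r (wild-type 3.66 and 3.36, labelled Hhex-deleted 24.2 and 32.4 CPM) and Il1rl1 (wild-type 17.8 and 13.7, labelled Hhex-deleted 68.9 and 58.4 CPM). The lower receptors beside Il6ra, named after their values were seen, were Csf2ra, Il11ra1 and Csf3r, with log2 fold changes of -0.70, -0.66 and -0.52.

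A pair of C-type lectins was selected. Clec5a, a myeloid receptor that signals through Tyrobp, had 39.5 and 51.4 CPM in wild-type and 17.4 and 17.7 CPM in the libraries labelled Hhex-deleted. Mgl2, a lectin for galactose-type sugars found on macrophages and dendritic cells, had 29.5 and 43.5 CPM against 9.22 and 12.5 CPM. Wild-type replicate 2 lay above replicate 1 for both lectins, while the libraries labelled Hhex-deleted were close together for Clec5a. Clec10a, the near copy of Mgl2 beside it on chromosome 11, had 7.53 and 7.28 CPM against 4.51 and 4.90 CPM (log2 fold change -0.68, edgeR adjusted p = 0.135), and how reads that match both genes were counted is not given. Mgl2 was called lower by edgeR but is not in the list of pattern recognition receptors and C-type lectins. Of the 32 tested genes of that list, edgeR called 1 lower, Clec5a, and 0 higher, near the 1.12% and 1.48% of all tested genes. At an unadjusted p under 0.05 there were 8 lower and 6 higher, DESeq2 called 4 and 3, and limma-voom called 1 and 0. Those next by unadjusted p were Mrc1 and Nod1, at log2 fold changes of 1.23 and -0.51 (edgeR adjusted p = 0.0681 and 0.0699).

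Prom1, the pentaspan glycoprotein prominin known as a progenitor marker, had 45.4 and 69.1 CPM in wild-type and 15.9 and 20.6 CPM in the libraries labelled Hhex-deleted, a level of 31.9%. The level of Mpzl1, an immunoglobulin-type glycoprotein that binds the phosphatase SHP-2, was 10.4 and 12.2 CPM against 2.64 and 3.88 CPM. Ptpru, a receptor-type tyrosine phosphatase, had 13.8 and 17.8 CPM against 5.08 and 4.77 CPM. The wild-type libraries differed more for Prom1, by 1.52-fold, than for Mpzl1 or Ptpru. Celsr3, a cadherin of planar cell polarity, had 20.6 and 26.6 CPM against 9.25 and 8.68 CPM. Tmem119, a membrane protein used as a marker of microglia, had 9.83 and 14.1 CPM against 3.53 and 4.32 CPM. Over the 8 surface proteins the mean level labelled Hhex-deleted ran from 28.9% to 44.1% of the wild-type mean.

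The selected genes also included genes of ion transport and calcium handling. Kcnip3, a calcium-binding protein that joins potassium channels and can act as a transcriptional repressor, had 35.9 and 40.9 CPM against 14.6 and 15.4 CPM. Efcab4a, now named Cracr2b and related to regulators of store-operated calcium entry, had 11.3 and 15.01 CPM against 4.17 and 5.17 CPM. Both groups of libraries were narrow for Kcnip3. Scnn1a, the alpha subunit of the epithelial sodium channel, had 14.7 and 19.98 CPM against 5.97 and 6.20 CPM. Slc4a8, a sodium-driven exchanger of chloride and bicarbonate, had 16.1 and 18.8 CPM against 7.59 and 4.73 CPM, where the libraries labelled Hhex-deleted differed from each other more than the wild-type libraries did.

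Lipid metabolism was represented by Sgms2 and Dgat2. Sgms2, a sphingomyelin synthase, had 39.9 and 53.2 CPM in wild-type and 15.7 and 19.95 CPM in the libraries labelled Hhex-deleted, and it was the member nearest to the ratio threshold (49.96%). Dgat2, which makes triglycerides from diacylglycerol, had 12.1 and 13.7 CPM against 5.19 and 4.36 CPM. The gene beside Dgat2 on chromosome 7, Mogat2, encodes an enzyme of the same pathway that makes diacylglycerol. Mogat2 had 10.7 and 14.9 CPM in wild-type and 2.47 and 5.41 CPM in the libraries labelled Hhex-deleted, and it missed the threshold at 50.5% because labelled Hhex-deleted replicate 2 was higher. Gcat, a mitochondrial enzyme of threonine breakdown, had 11.1 and 10.3 CPM against 3.25 and 4.36 CPM, and Acpp, an acid phosphatase known from the prostate, had 7.28 and 10.7 CPM against 2.98 and 2.66 CPM.

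Genes of the cytoskeleton and of small GTPases included some of the lowest ratios, from low wild-type levels. Wdr65, now named Cfap57 and known from cilia and flagella, had 6.21 and 8.33 CPM in wild-type and 1.08 and 1.67 CPM in the libraries labelled Hhex-deleted, a level of 18.9%. Phldb2, which anchors microtubules at the cell cortex, had 5.99 and 8.15 CPM against 1.76 and 1.19 CPM. Arhgef10l, an exchange factor that switches on small GTPases, had 5.06 and 5.49 CPM against 1.12 and 1.60 CPM, and was the member nearest to the wild-type minimum. These 3 genes rest on few reads, with 32 to 52 counts in each library labelled Hhex-deleted. Cdc42ep4, an effector of Cdc42, was better expressed, with 35.9 and 44.1 CPM against 16.7 and 13.7 CPM. Rapgef3, the exchange factor for Rap proteins that cyclic AMP switches on, had 19.1 and 19.6 CPM against 9.08 and 8.20 CPM. Myo18b, an unconventional myosin known from muscle, had 6.21 and 8.05 CPM against 1.90 and 2.76 CPM.

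A nuclear receptor, a corepressor and an inflammasome protein were also selected. Vdr, the receptor of active vitamin D, had 16.1 and 13.8 CPM in wild-type and 5.05 and 4.73 CPM in the libraries labelled Hhex-deleted, a level of 32.8%. Rxra, the gene of a partner receptor, had 14.6 and 13.4 CPM against 9.36 and 13.1 CPM (log2 fold change -0.35, edgeR adjusted p = 0.474). Vdr was among the 6 members in which wild-type replicate 1, and not replicate 2, was the higher. Tle2 belongs to the Groucho/TLE corepressors and had 25.5 and 25.4 CPM in wild-type and 7.86 and 10.5 CPM in the libraries labelled Hhex-deleted, a level of 36.1%. The related genes Tle1, Tle3 and Tle4 had log2 fold changes of 0.19, -0.15 and 0.26, and none passed the test (edgeR adjusted p = 0.581, 0.448 and 0.183). Tle6, whose span overlaps that of Tle2 on chromosome 10, had 21.5 and 22.04 CPM against 15.6 and 15.5 CPM (log2 fold change -0.51, edgeR adjusted p = 0.0848). Mefv, which encodes the inflammasome sensor pyrin of granulocytes and monocytes, had 28.2 and 41.2 CPM in wild-type against 12.1 and 9.09 CPM.

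Among the records of the Tnfsf13 locus on chromosome 11, 2 were selected. Tnfsf13 encodes APRIL, a ligand of B lineage cells. BC096441, now named Tnfsfm13, had 23.0 and 38.3 CPM in wild-type and 9.97 and 8.44 CPM in the libraries labelled Hhex-deleted. The non-coding 2010012P19Rik, now named Tnfsf13os, had 9.54 and 17.5 CPM against 3.25 and 3.40 CPM. Wild-type replicate 2 was 1.67-fold and 1.83-fold above replicate 1 for these records, the widest wild-type spreads among the 40 genes. Tnfsf13 itself was under the wild-type minimum in replicate 1, with 3.87 and 5.84 CPM in wild-type and 1.36 and 0.885 CPM in the libraries labelled Hhex-deleted. It was called lower over all genes (log2 fold change -2.13, edgeR adjusted p = 0.0393). Tnfsf12, whose span also overlaps both records, was not called, with 7.36 and 5.53 CPM against 7.25 and 6.84 CPM (log2 fold change 0.11, edgeR adjusted p = 0.891). Senp3, whose span overlaps that of 2010012P19Rik, had 99.3 and 94.0 CPM in wild-type and 96.1 and 87.8 CPM in the libraries labelled Hhex-deleted (log2 fold change -0.09). Polr2a, on the other side of the locus, had a log2 fold change of 0.05. Because the spans overlap, the separate values of these records are uncertain. Of 27 tested TNF ligands and receptors, edgeR called 2 lower, Tnfsf13 and Tnfrsf1a, and 0 higher, against 1.12% and 1.48% of all tested genes, and the median log2 fold change was -0.18. At an unadjusted p under 0.05 there were 7 lower and 3 higher, DESeq2 called 4 and 1, and limma-voom called 2 and 0.

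The lowest ratio of the group means belonged to Ighv9-3, a variable segment of the immunoglobulin heavy chain, with 17.7 and 28.7 CPM in wild-type and 2.00 and 5.04 CPM in the libraries labelled Hhex-deleted. Labelled Hhex-deleted replicate 2 was more than 2 times replicate 1, and such segments share sequence with near copies, so this value is uncertain. The segments beside it among the tested genes, Ighv9-2 and Ighv3-6, had log2 fold changes of -3.01 and -1.44, and neither passed the test (edgeR adjusted p = 0.0536 and 0.364). The non-coding RNA 4933440M02Rik had 5.27 and 8.75 CPM against 1.25 and 2.42 CPM. The unnamed Entrez 100503188 had 8.18 and 8.40 CPM against 1.73 and 2.52 CPM. Of the 3 genes with no role given, Dmwd had 32.7 and 28.7 CPM against 9.32 and 10.2 CPM, Sowahc had 7.25 and 6.61 CPM against 2.00 and 2.01 CPM, and AI661453 had 12.1 and 11.4 CPM against 4.47 and 4.22 CPM. The wild-type libraries lay within 1.2-fold of each other for Entrez 100503188, Dmwd, Sowahc and AI661453, while those of 4933440M02Rik differed by more than 1.5-fold.

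At the ratio threshold the members just inside included Sgms2 (49.96%), Il6ra (49.9%), Mmp28 (49.5%) and Hp (49.4%). The genes just outside were Cldn15 (50.01%), Mogat2 (50.5%), Glt1d1 (50.6%), Ttc21a (50.8%) and Cyp27a1 (50.8%). Just under the wild-type minimum lay Plau, Lrrc25 and Col5a3, whose lower wild-type values were 4.70, 4.41 and 4.16 CPM. The values run on across both edges without a gap, so the number of 40 is set by the thresholds.

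The selected genes differed between the wild-type libraries in a common direction, which the rule did not use. Wild-type replicate 2 was above replicate 1 in 34 of 40 members (85%), with a median ratio of 1.29, against 55.6% of the active genes, with a median ratio of 1.01. The libraries labelled Hhex-deleted showed no such order, with replicate 2 above replicate 1 in 22 of 40 members (55.0%) against 56.8% of the active genes. For comparison, 37 genes met the same rule with the groups exchanged, and in these wild-type replicate 2 was above replicate 1 in 15 (40.5%). Summed over the 40 genes the level was 1204 and 1530 CPM in wild-type and 473 and 494 CPM in the libraries labelled Hhex-deleted. No test was made of these shares, since genes of a library are not replicates.

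**Figure D2:**
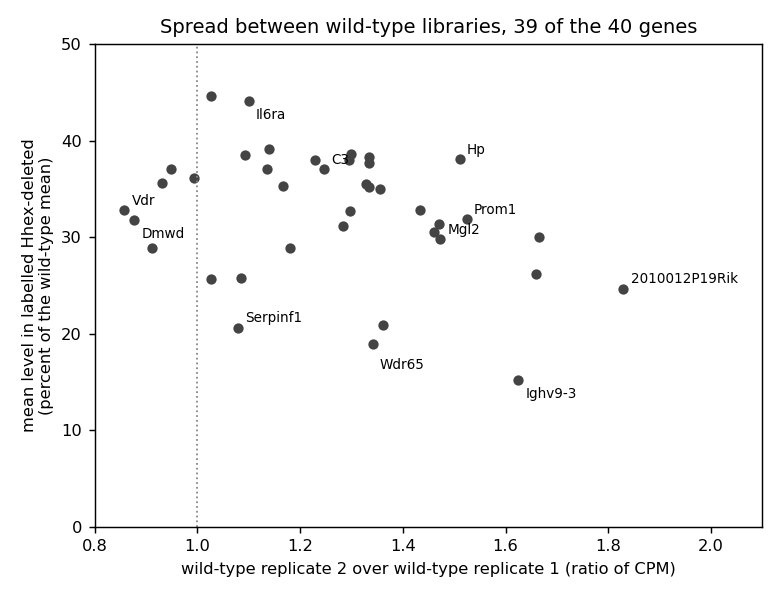
Ratio of wild-type replicate 2 to replicate 1 (x axis, ratio of CPM) and mean level labelled Hhex-deleted as percent of the wild-type mean (y axis) for 39 of the 40 genes. The dotted line marks equal wild-type values; 33 genes lie to its right, with 2010012P19Rik at 1.83 and Ighv9-3 at 1.63, while Vdr and Dmwd lie to its left.

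Among lists of other genes, several had the same order between the wild-type libraries and others did not. The list called progenitor granule genes here covers granulocyte and monocyte progenitors. Beside granule genes it holds others, such as Igfbp4, Alas1 and the selected Dmkn. Of its 17 tested genes, wild-type replicate 2 was the higher in 16. Of 15 tested markers of mature neutrophils, none of which was selected, it was the higher in all 15. The same was seen in 15 of 17 B cell genes, 31 of 39 cytokine receptors and 21 of 23 genes of the G2 and M phases, but in only 10 of 21 myeloid transcription factors and 5 of 16 macrophage genes. The list of myeloid transcription factors also holds genes of the immediate early kind described below. Of these Fos, Jun and Egr1, named after their values were seen, were higher in wild-type replicate 1 (Egr1 at 913 and 13.9 CPM in replicates 1 and 2). The 19 matched genes of the progenitor granule list summed to 22821 and 27517 CPM in wild-type and to 17107 and 13304 CPM in the libraries labelled Hhex-deleted. Of the 17 tested, edgeR called 6 lower, Igfbp4 and Elane with the smallest p, and 1 higher (Prg3), against 1.12% and 1.48% of all tested genes. The 6 include the selected Dmkn and also Elane, which met the thresholds and was left out by name. Part of this count therefore comes from values that the rule used. DESeq2 called 11 lower and 1 higher and limma-voom 6 and 0, and the median log2 fold change was -0.73. The 17 matched neutrophil markers summed to 731 and 1402 CPM in wild-type and to 237 and 702 CPM in the libraries labelled Hhex-deleted. Of these Stfa2, which was not tested, stood at 0 in every library. Of the 15 tested, edgeR called 1 higher, Mmp9, and 0 lower, with 2 lower at an unadjusted p under 0.05, and DESeq2 called 2 lower and limma-voom 0. Among 21 tested myeloid transcription factors edgeR and limma-voom made 1 call each and DESeq2 called 6 lower and 1 higher. The edgeR call was a lower level of Cebpb (log2 fold change -0.84, edgeR adjusted p = 0.0382), followed by Irf8 (-0.75, edgeR adjusted p = 0.0642). Among markers of other cell types, edgeR called 7 of 16 tested genes of mast cells, basophils and eosinophils higher (median log2 fold change 1.39), 8 of 17 B cell genes (1.12) and 6 of 16 macrophage genes (1.28), with 1 macrophage gene lower, Vcam1. In the remaining lists of cell types, edgeR called 1 of 18 erythroid genes higher (0.54) and 0 of 18 megakaryocyte and platelet genes (0.42). It called 2 of 17 T and natural killer cell genes higher and 1 lower (0.10), and 2 of 13 stromal and endothelial genes higher (0.49). Of 28 stem cell genes 2 were called higher (0.13), and of 27 monocyte and dendritic cell genes 1 was called lower (-0.30). The mast cell, basophil and eosinophil list summed to 1093 and 1192 CPM in wild-type and 2286 and 2228 CPM in the libraries labelled Hhex-deleted. The B cell list summed to 766 and 1308 against 741 and 833 CPM, and the macrophage list to 378 and 393 against 378 and 314 CPM. The part of these other genes in the levels of the 40 genes was not tested. Immediate early genes, which cells switch on quickly after a stimulus, split the libraries another way, with summed levels of 7424 and 5020 CPM in the replicates 1 of wild-type and labelled Hhex-deleted and 1136 and 1383 CPM in the replicates 2.

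**Figure D3:**
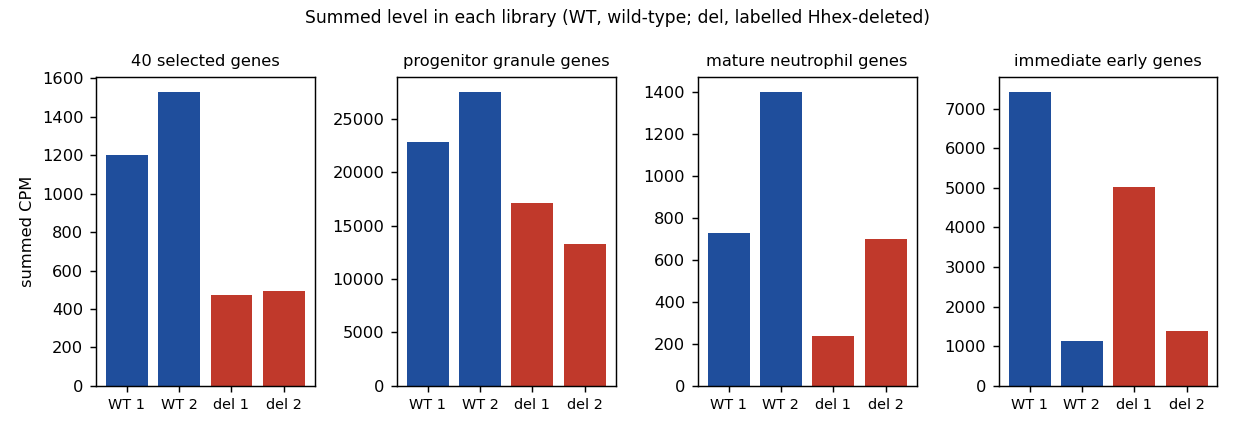
Summed CPM of the 40 selected genes and of 3 gene lists in each library (WT, wild-type; del, labelled Hhex-deleted), with a separate y axis from 0 for each panel and no error bars because each bar is a single library. The selected genes and the progenitor granule genes are lower in both libraries labelled Hhex-deleted, the mature neutrophil genes vary within both groups, and the immediate early genes are high in both replicates 1.

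The selected genes with a known chromosome lay on 15 of the 19 autosomes, with none on chromosomes 13, 14, 18 and 19. Chromosome 11 held 7 of its 903 active genes (0.775%) and chromosome 15 held 4 of 417 (0.959%), against 0.373% over all. Apart from the records of the Tnfsf13 locus, no selected gene was the direct neighbour of another. The 75 tested genes directly beside a selected gene and not selected themselves had a median log2 fold change of -0.19 (quartiles -0.50 and -0.08), and 63 of them (84.0%) were below 0. Over all 13675 tested autosomal genes the median was -0.01, with 51.6% below 0. Of the 75 neighbours edgeR called 5 lower and 0 higher, against 1.12% and 1.48% of all tested genes, DESeq2 called 12 and 0, and limma-voom 5 and 0, while at an unadjusted edgeR p under 0.05 there were 23 lower and 2 higher. The 5 were Tnfsf13, 1700020L24Rik, Tnfrsf1a, and, also named after their values were seen, Endou beside Rapgef3 (3.48 and 4.62 CPM against 0.814 and 0.647) and Mgam beside Clec5a (30.8 and 40.2 CPM against 16.9 and 17.0). Without the neighbours whose span overlaps a selected gene, 56 of 68 (82.4%) were below 0, with a median of -0.18. With a library left out the share below 0 among the 75 ran from 78.7% to 82.7%, and the share among all tested genes from 49.1% to 52.1%. At the second place in gene order, on either side, the share was 57.1% of 77 genes with a median of -0.02, and at places 3, 5, 10 and 20 it lay between 57.1% and 61.0%. With the wild-type minimum of 5 CPM applied to the neighbours as well, the median at the first place was -0.17 over 60 genes, with 81.7% below 0. Beside the 37 genes of the exchanged rule the share at the first place was 36.8%, with a median of 0.11, which was also the median at the second place, with 40% below 0. With the same minimum their median at the first place was 0.04.

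**Figure D4:**
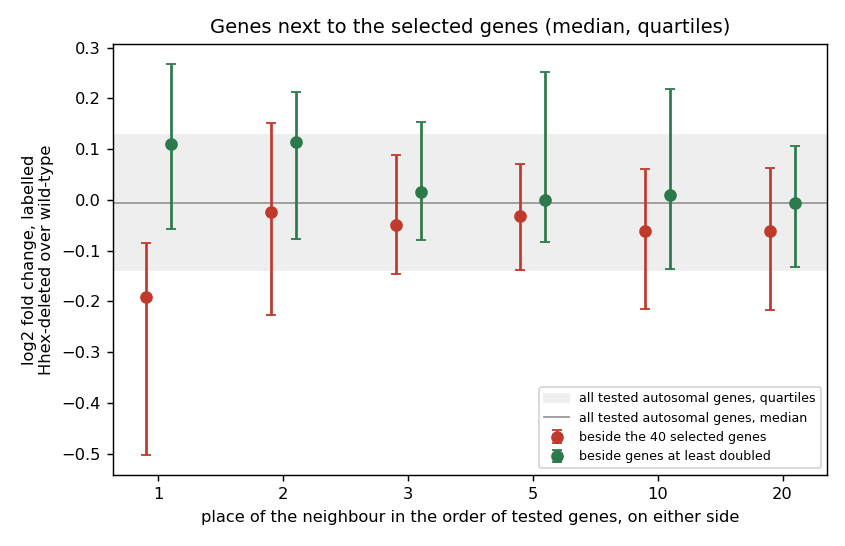
Log2 fold change (labelled Hhex-deleted over wild-type, y axis) of the genes at place 1, 2, 3, 5, 10 and 20 from a selected gene in the order of tested genes (x axis, not to scale), as median with quartiles. Red points are neighbours of the 40 selected genes, green points those of the 37 genes at least doubled, and the grey band and line are the quartiles and median of all tested autosomal genes; the red point at place 1 lies at -0.19 and the others between -0.06 and -0.02.

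Several such neighbours belong to the same pathway or family as the selected gene. They include Mogat2 beside Dgat2 (log2 fold change -1.73), Clec10a beside Mgl2 (-0.68) and Tle6 beside Tle2 (-0.51), and Aes, a shorter relative of the TLE genes on the other side of Tle2, had -0.22. None of these 4 passed the test (edgeR adjusted p from 0.0848 for Tle6 to 0.234 for Aes). Scnn1a lies between Ltbr and Tnfrsf1a, both receptors of the TNF family, with log2 fold changes of -0.40 and -0.64, of which Tnfrsf1a was called lower. Dmpk beside Dmwd had a log2 fold change of -1.14 and Septin10 beside Sowahc had -1.27, and neither passed the test (edgeR adjusted p = 0.0896 and 0.106). These pairs were picked after their values were seen.

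The promoter windows of 30 of the 40 genes were matched in RefSeq, 42 windows in all, since 6 genes have several annotated starts. They were as rich in G and C as those of the active genes (medians of 60.7% and 61.0%) but poorer in the dinucleotide CpG, with a median observed over expected ratio of 0.486 against 0.774 over 10477 windows. Windows poor in CpG, with a ratio under 0.5, made up 50% of the windows of the selected genes, 20.8% of those of the active genes and 60.5% of those of the exchanged rule. These are shares of windows and not of genes, since a gene with several starts, such as Sgms2 or Dmkn, enters more than once. The windows of Serpinf1 and C3 printed above had ratios of 0.158 and 0.141.

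Of 10 short motifs searched on both strands, the AP-1 core TGANTCA had the widest gap to the active genes. AP-1 factors are pairs of Fos and Jun proteins, and the core reads the same on both strands. The core was in the windows of 5 of 30 selected genes (16.7%), of 5.78% of 8222 active genes and of 1 of 31 genes (3.23%) of the exchanged rule. All 5 are among the 6 selected genes with several annotated starts, which 1692 of the 8222 active genes have. A gene with more windows offers more places for a match. Among windows with a CpG ratio under 0.5 the core was in 8 of 21 (38.1%) of the selected and 10.2% of the active genes. These 8 windows belong to Arhgef10l, Dmkn, Kcnip3 and Prom1 alone. Some windows of the same gene overlap, as those of Arhgef10l do, while others, such as those of Prom1, do not. The 9 matches are shown with 25 bases on either side, as the stretches in which these 5 genes share letters, on GRCm38.p6 with the motif in capitals:
Arhgef10l, chr4:140665912-140665968, minus strand: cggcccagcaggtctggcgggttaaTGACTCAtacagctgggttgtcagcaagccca
Arhgef10l, chr4:140666035-140666091, minus strand: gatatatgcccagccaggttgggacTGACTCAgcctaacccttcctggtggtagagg
Dmkn, chr7:30763642-30763698, plus strand: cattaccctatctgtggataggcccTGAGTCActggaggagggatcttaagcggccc
Dmkn, chr7:30776298-30776354, plus strand: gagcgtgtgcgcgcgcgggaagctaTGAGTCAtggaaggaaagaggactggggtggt
Kcnip3, chr2:127522185-127522241, minus strand: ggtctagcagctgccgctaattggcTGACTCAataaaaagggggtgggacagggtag
Prom1, chr5:44094926-44094982, minus strand: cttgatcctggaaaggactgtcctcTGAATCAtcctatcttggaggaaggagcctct
Prom1, chr5:44101793-44101849, minus strand: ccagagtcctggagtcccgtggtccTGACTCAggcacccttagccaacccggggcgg
Sgms2, chr3:131490375-131490431, minus strand: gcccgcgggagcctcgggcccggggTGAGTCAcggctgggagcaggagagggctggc
Sgms2, chr3:131490768-131490824, minus strand: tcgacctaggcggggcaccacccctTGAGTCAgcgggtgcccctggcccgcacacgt
The match nearest to a start lies 38 bases before that of Arhgef10l and the farthest 189 bases before a start of Prom1. In the stretch of Kcnip3 the letters taattg, the reverse complement of the core CAATTA bound by homeobox proteins of the Hhex type, stand just before the AP-1 core. CAATTA was in the windows of 4 of 30 selected genes (13.3%: Acpp, Dmkn, Kcnip3 and Sgms2) and of 5.68% of active genes. It was also in those of 3 of 31 genes (9.68%) of the exchanged rule. Of the 4 selected genes, all but Acpp have several annotated starts. AGATAA, the Gata core, was in 4 of 30 selected genes (13.3%) against 7.59%, and in 29.0% of the genes of the exchanged rule. Among windows with a CpG ratio under 0.5 its shares were nearly equal, 14.3% for the selected and 13.9% for the active genes. The other 7 motifs, TTGCNNAA (C/EBP), TGTGGT (Runx), GAGGAAG (ETS), AACNGTT (Myb), TAATTA (homeobox), TATAAA and CACGTG (E-box), were within 3 percentage points of their share among active genes. These shares were not tested, the motif of largest gap was picked after the shares were seen, and a match of so few letters says nothing about binding.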

How the data were processed

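RNA-seq libraries of LSK cells, 2 labelled Hhex-deleted and 2 wild-type, were compared. The authors deposited raw read counts per Entrez gene and, per library, log2 RPKM values. Subread, featureCounts, limma and mm9 stand in the submitters' processing notes, with no versions or roles. Strand and multi-mapping settings were not given in the sources used here. With gene length added back, the ranked log2 RPKM values deposited by the authors were nearly equal in all libraries (median difference 0.000809), so these had been brought to a common distribution.

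Members were selected on CPM from column totals. Counts were fitted with edgeR 4.0.16 (R 4.3.3) after filterByExpr (minimum count 10, total 15), with TMM factors, robust quasi-likelihood dispersion and group as the only term, and Benjamini-Hochberg adjustment at 0.05 over 14912 genes. Log2 fold changes are labelled Hhex-deleted over wild-type, with a prior count of 0.125. DESeq2 1.42.0 and limma-voom (limma 3.58.1) were alternatives. The members and gene lists were chosen with earlier results of these data known. Genes were named by rule: Serpinf1, the 15 lowest ratios of group means, the 10 highest wild-type levels, members in a list, those at the thresholds, and up to 2 others per list by smallest p. The remaining members and their relatives were added after their values were seen, as were the roles. Names, gene order and promoter windows came from RefSeq on GRCm38.p6, a later build than mm9, so coordinates belong to RefSeq and not to the deposited files. The total count per library sets the precision, and floors of 3 counts cover counting error only. A selected gene counted in the totals is not reported here by name.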

Additional observations from a re-analysis of the deposited data

How the results depend on the processing

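The number of selected genes, 40, follows from the thresholds: a wild-type minimum of 1 CPM gave 68, a ratio of 3 gave 7 and a ratio of 1.5 gave 165. With a library left out the rule, which then has fewer conditions to meet, selected 66 (without wild-type replicate 2) to 164 genes (without wild-type replicate 1), which contain the 40 by construction. In the deposited log2 RPKM values it selected 50 genes, of which 38 were among the 40. Over all tested genes, the 167 called lower and 221 called higher became 508 and 493 with DESeq2, and 272 were called lower with no filter on low counts. Over the fits that leave out a library there were 40 to 231 lower and 84 to 366 higher calls, and both lowest counts were those without wild-type replicate 2. Of the selected genes, 37 were called with all libraries and 14 (without wild-type replicate 2) to 30 with a library left out. Only 11 were called whichever library was left out, among them Serpinf1, Dmwd, Vdr, Tle2, C3, Cdc42ep4, Sgms2, Clec5a, Kcnip3 and Il6ra. The median log2 fold change of the 40, -1.58, lay between -1.70 and -1.40 when a library was left out, with the value nearest 0 reached without wild-type replicate 2. The rule fixes the direction of the 40, so the alternatives do not test it. The cause of these differences was not tested.

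Same-numbered libraries share only a number in the labels, and with 2 pairs their deviations correlated at 0.33 over genes. With the replicate number as a block, 130 genes were called lower and 185 higher, 29 of the selected genes were called, and their median log2 fold change was -1.59.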
